A study of Mus musculus with 28 samples.

Results

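Binding of the cofactor Ldb1, of CTCF and of the cohesin subunit Rad21 was examined at 10 mouse genes for axon guidance and axon sorting: the ligand gene Slit1, the receptor genes Robo1 and Robo2, and the adhesion genes Kirrel2, Kirrel3, Cntn4, Cntnap2, Pcdh10, Pcdh17 and Pcdh19. They were chosen by name from 21757 protein-coding genes, and a peak was assigned to a gene when it overlapped the gene body extended by 10 kb on both sides, here called the window. The 10 windows together hold 7.01 Mb. All libraries came from chromatin of cells that were fixed with formaldehyde and sorted from dissociated olfactory epithelium.

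Control cells were mature olfactory sensory neurons of OMP-IRES-GFP mice, with 3 Ldb1, 2 CTCF and 2 Rad21 peak lists. Ldb1 was also mapped in 2 libraries from mature neurons called Lhx2 KO below. They were Lhx2fl/fl, with OMP-IRES-Cre, which places the Cre recombinase at Omp, a gene switched on in mature neurons, and with Rosa-CAG-tdtom+/fl, a red reporter. The other 2 Ldb1 libraries came from Olfr1507+ cells of M28-IRES-GFP mice, which carry a green reporter at 1 odorant receptor gene. The labels give neither the ages nor the number of animals behind a library, so the spread between libraries may be technical. A peak list cannot show whether Lhx2 was lost in the KO cells.

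Ldb1 does not bind DNA itself and is held at chromatin by partners, among them the LIM-homeodomain factor Lhx2. Olfactory sensory neurons send an axon to the olfactory bulb, where axons of neurons with the same receptor gather in shared glomeruli. Slit proteins are secreted ligands that repel axons carrying Robo receptors and help to set the position of olfactory axons along the dorsal to ventral axis. Kirrel2 and Kirrel3 are homophilic adhesion proteins of the immunoglobulin superfamily, contactins are immunoglobulin proteins tied to the membrane by a lipid anchor, Cntnap2 is a neurexin-like partner of contactins, and delta protocadherins are adhesion proteins of the cadherin superfamily. Kirrel and protocadherin genes are known for their part in sorting olfactory axons by receptor identity.

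At 3 of the 10 genes, Cntn4, Kirrel2 and Pcdh10, an Ldb1 region of control neurons overlapped a listed promoter. Counted by promoter, these were 4 of the 12 listed for the 10 genes, against 5.84% of all 32851. A region here is a stretch with linked peaks (at least 1 shared base) from at least 2 libraries of a group. The RefSeq table of GRCm38.p6 promoters, 300 bases long with 250 before the start and 50 after it, held 12 promoters of 8 members. Slit1 and Kirrel3 were not among those matched. The 3 bound promoters are shown because each also held an Ldb1 peak of the first Lhx2 KO library. Capitals mark the bases inside the control Ldb1 region, and each sequence reads 5′ to 3′ on the gene's strand. They lie at chr6:106118692-106118991 (plus strand, the later of a pair of overlapping Cntn4 promoters), chr7:30457466-30457765 (minus strand) and chr3:45378148-45378447 (plus strand).
Cntn4: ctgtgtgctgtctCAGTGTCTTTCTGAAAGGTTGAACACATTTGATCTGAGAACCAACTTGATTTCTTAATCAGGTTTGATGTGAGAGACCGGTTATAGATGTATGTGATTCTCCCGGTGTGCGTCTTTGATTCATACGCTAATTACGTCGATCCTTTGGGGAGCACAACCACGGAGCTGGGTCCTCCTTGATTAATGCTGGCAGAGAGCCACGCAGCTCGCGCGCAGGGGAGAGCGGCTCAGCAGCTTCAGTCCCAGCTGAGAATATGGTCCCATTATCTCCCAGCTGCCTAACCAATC
Kirrel2: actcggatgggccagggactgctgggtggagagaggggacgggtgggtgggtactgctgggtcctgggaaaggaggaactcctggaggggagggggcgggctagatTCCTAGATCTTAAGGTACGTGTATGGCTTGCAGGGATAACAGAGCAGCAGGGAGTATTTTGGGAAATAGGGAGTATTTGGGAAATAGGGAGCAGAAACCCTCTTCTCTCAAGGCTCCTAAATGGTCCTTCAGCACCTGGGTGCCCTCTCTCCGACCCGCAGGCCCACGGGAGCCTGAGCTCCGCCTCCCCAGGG
Pcdh10: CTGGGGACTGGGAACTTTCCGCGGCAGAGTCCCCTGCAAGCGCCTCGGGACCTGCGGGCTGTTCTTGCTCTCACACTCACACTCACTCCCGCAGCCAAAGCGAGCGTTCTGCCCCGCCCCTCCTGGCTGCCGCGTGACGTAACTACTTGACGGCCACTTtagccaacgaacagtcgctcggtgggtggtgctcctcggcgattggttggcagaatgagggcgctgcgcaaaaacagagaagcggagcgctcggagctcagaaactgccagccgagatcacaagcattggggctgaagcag

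The region covered 287 of the 300 bases at this Cntn4 promoter, 194 at Kirrel2 and 159 at Pcdh10. Pcdh10 has the promoter with the most CpG dinucleotides of the 3, 24, against 12 at Cntn4 and 8 at Kirrel2, and its GC content was 62.3%, against 50% at Cntn4 and 59.7% at Kirrel2. The median over the 1918 promoters with a control Ldb1 region was 60.7%, and over all 32851 promoters it was 52.7%. The letters TAATTA, a core shared by LIM-homeodomain sites, were searched on both strands and begin at base 141 of the Cntn4 sequence above, inside the capitals. They stand in 5.29% of all promoters and in 7.25% of those with a control Ldb1 region. The palindromic core motif of EBF factors stands in 0.904% of all promoters and 1.93% of those with a region, and was not matched in the 12 member promoters. Both motifs were chosen after the promoter sequences had been seen, and a match is a description only.

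All 10 genes had a control Ldb1 region, against 39.7% of all protein-coding genes. The windows held 119 of the 22789 control Ldb1 regions, and 77 of them were found in all 3 libraries (64.7%, against 65.2% of all regions). The median density over the 10 genes was 2.87 regions per 100 kb of window, and over all genes it was 0.0. A long window can hold a region more easily, and 5 of the 10 genes are at least 500 kb long, so each was set beside genes of its own length class (classes chosen after seeing the data). Of the 226 genes of at least 500 kb, 87.6% had a region, and the median density was 0.519 regions per 100 kb. In that class Cntn4, Robo1, Kirrel3 and Robo2 lay above the median and Cntnap2 below it. Both members of 100 to 500 kb, Slit1 and Pcdh19, lay above their class median of 0.875. For shorter genes the median was 0.0, which any gene with a region exceeds. Kirrel2, Pcdh10 and Pcdh17 also lay above the upper quartile of that class, 2.29 regions per 100 kb.

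**Figure D1:**
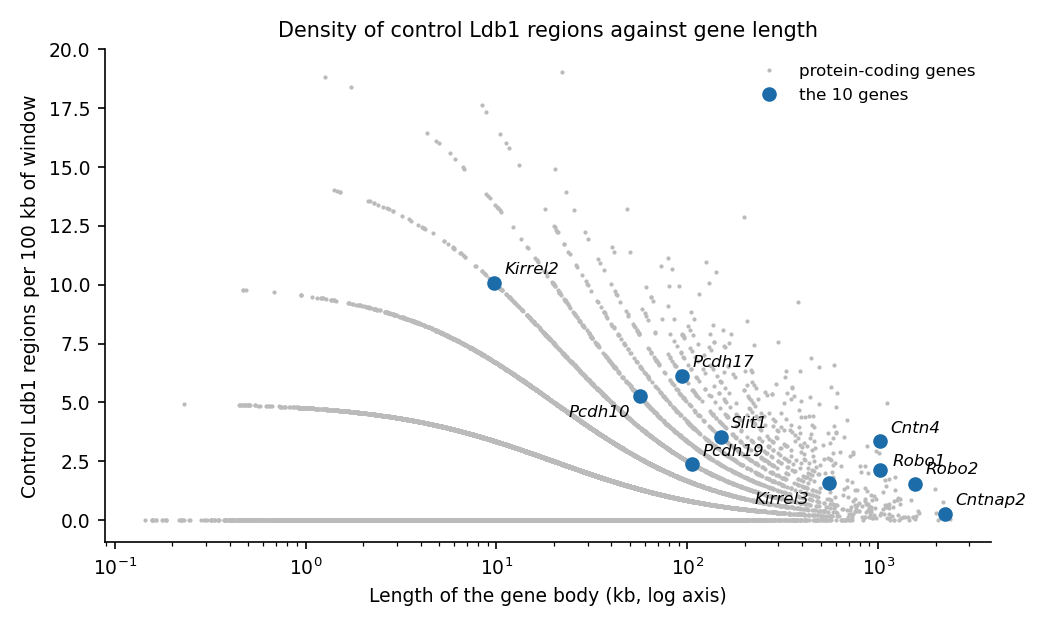
Control Ldb1 regions per 100 kb of window (vertical axis) against the length of the gene body in kb (horizontal, log axis), 1 small point per protein-coding gene and 1 large point per member. Curved rows are genes with the same whole number of regions. Cntn4, at 3.36 regions per 100 kb, stands above most genes of its length, and Cntnap2, at 0.265, lies near the bottom.

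By peaks per 100 kb in the 3 control Ldb1 lists, the 10 genes fell in a wide order. Their windows also differ widely, from 29.75 kb at Kirrel2 to 2261 kb at Cntnap2, and the part of window length in the order was not tested. Kirrel2 was densest at 10.1 ± 3.36 (SD, n = 3), Pcdh10 had 5.69 ± 0.758 and Pcdh17 5.26 ± 1.52. Slit1 followed with 3.74 ± 0.901, Cntn4 with 3.33 ± 1.37 and Pcdh19 with 2.38 ± 0.792. Robo1 had 2.18 ± 0.588, Kirrel3 1.74 ± 0.301, Robo2 1.65 ± 0.496 and Cntnap2 0.280 ± 0.0675, all with n = 3. Of neighbours in this order, the library ranges did not overlap between Kirrel2 and Pcdh10 or between Robo2 and Cntnap2, while those of the other 7 pairs overlapped. All genes were measured in the same 3 libraries, whose lists differ in length, so the order can also be read within a library. In 3 of 3 libraries Pcdh17 was denser than Slit1, Cntn4 than Pcdh19, Pcdh19 than Robo1 and Robo1 than Kirrel3, as well as both pairs without overlap. Pcdh19 exceeded Robo1 only narrowly, with 2.38 against 2.31, 3.17 against 2.69 and 1.58 against 1.54, from 3, 4 and 2 Pcdh19 peaks. The order held in 2 of 3 libraries for Pcdh10 over Pcdh17, Slit1 over Cntn4 and Kirrel3 over Robo2.

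**Figure D2:**
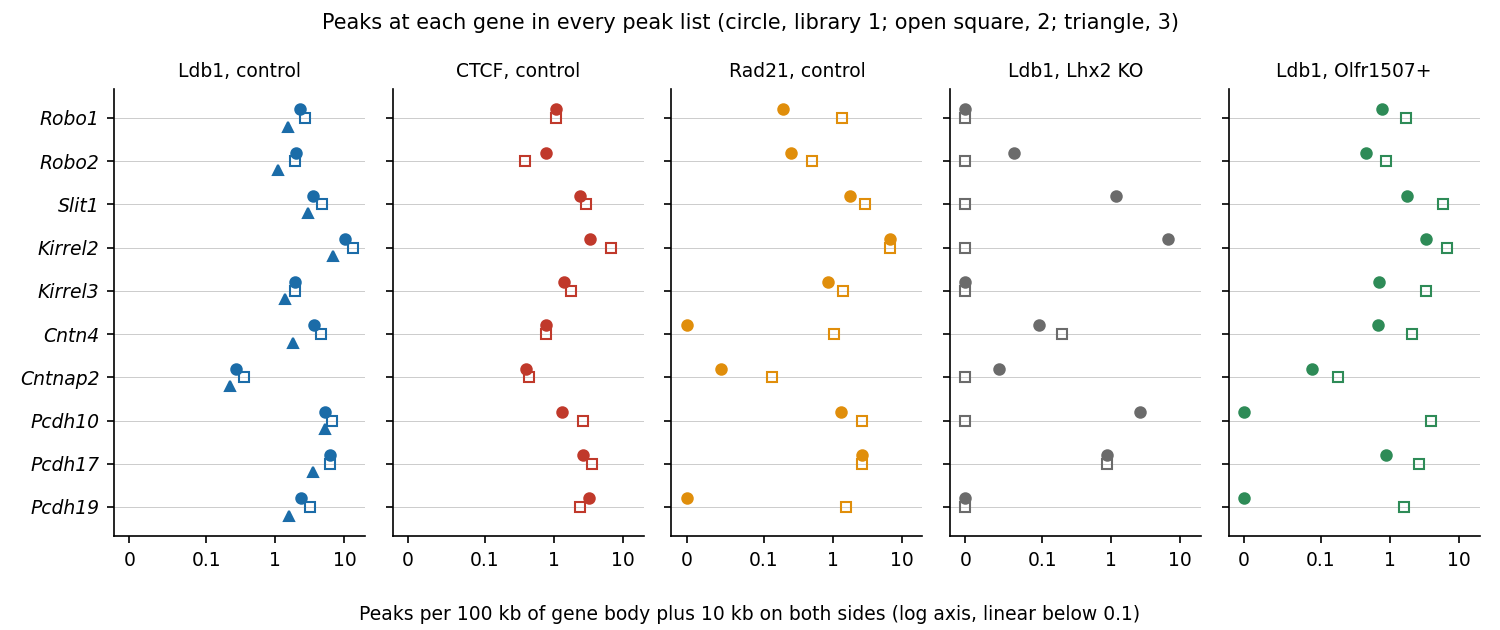
Peaks per 100 kb of window for each gene (rows) in each of the 11 peak lists, 1 panel per group, with a horizontal axis that is logarithmic above 0.1 and linear below it. Each symbol is 1 library. Kirrel2 lies furthest right in the control Ldb1 panel and Cntnap2 furthest left, and most symbols of the Lhx2 KO panel lie at 0.

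Slit1, the ligand gene (chr19:41597824-41747275), held 6, 8 and 5 peaks in the control Ldb1 lists and 6 regions. It is the densest of the 3 Slit genes. Its strongest region, chr19:41642952-41643313, lies in the gene body and was ranked 2428 of all 22789 control Ldb1 regions, at ranks 2234, 2359 and 2650 of the lists, which hold 24877, 28879 and 16067 peaks. That region kept a peak in the first Lhx2 KO library and in both Olfr1507 libraries. The window reaches 10 kb beyond the body and touches the neighbouring gene Lcor, but all 6 regions lie inside Slit1.

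Robo1 (chr16:72027518-73047491), a Slit receptor gene, held 24, 28 and 16 control Ldb1 peaks and 22 regions, while Robo2 (chr16:73891976-75447443), the receptor gene that lies 844 kb further along the chromosome, held 31, 30 and 17 peaks and 24 regions. In both genes the third library has the fewest peaks and the shortest list. Robo2 holds the strongest region of all 10 genes, chr16:74139855-74140202, at rank 301 of all control regions and ranks 239, 259 and 387 in the lists. It lies in the gene body, 272 kb from the nearest listed start. It was also in both Rad21 lists, in the first Lhx2 KO list and in both Olfr1507 lists. Another 2 Robo2 regions were among the strongest 10% (the top 2278): chr16:74234515-74234863 at rank 613 and chr16:74548388-74548750 at rank 1582. The strongest Robo1 region, chr16:72572936-72573324, ranked 2246.

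The regions were unevenly spread along the long genes (the split at starts listed in the promoter table was chosen after seeing the data). Robo1 held 7 Ldb1 regions, 1.10 per 100 kb, from its first base to 1 kb before its listed internal start and 15, or 3.89 per 100 kb, from there on. In Robo2, with 3 listed starts, the part after the last start held 19 regions at 3.65 per 100 kb. The first and middle parts of Robo2 held 2 and 3, at 0.565 and 0.441 per 100 kb. CTCF regions did not follow this split. They numbered 6 before and 4 after the internal start in Robo1, and 1, 3 and 2 from the first to the last part of Robo2.

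Cntn4 (chr6:105677632-106700141), which encodes a contactin, held the most control Ldb1 peaks of the 10 genes, 38, 47 and 19, in 35 regions. Of the 226 genes of at least 500 kb, 13 were denser and 3 held more regions. Of the 35 Cntn4 regions, 29 (4.98 per 100 kb) lay from 1 kb before the later listed internal start onward and 5 (1.14 per 100 kb) before that, and 1 lay in the flank. CTCF regions numbered 3 and 2 in the same parts. The strongest Cntn4 region, chr6:106118705-106119055, covers most of the promoter printed above and ranked 307 of all control regions, at 356, 319 and 300 in the lists. The others among the strongest 10% were chr6:106561713-106562050 at rank 861 and chr6:106277140-106277483 at rank 1082.

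Cntnap2 (chr6:45060061-47301393), the longest gene of the 10 at 2241 kb, held only 6, 8 and 5 control Ldb1 peaks in 6 regions. Of the 226 genes of at least 500 kb, 153 were denser. From 1 kb before the internal listed start onward, the last 58.0 kb held 2 regions, 3.45 per 100 kb, while the 2183 kb before held 4, or 0.183 per 100 kb. Here CTCF followed the same split, with 2 regions in the last part and 7, at 0.321 per 100 kb, in the first. The strongest region of the gene, chr6:47291972-47292353 at rank 943, lies in that last part. Its rank in the lists varied more than at Cntn4, with 520, 425 and 1538.

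**Figure D3:**
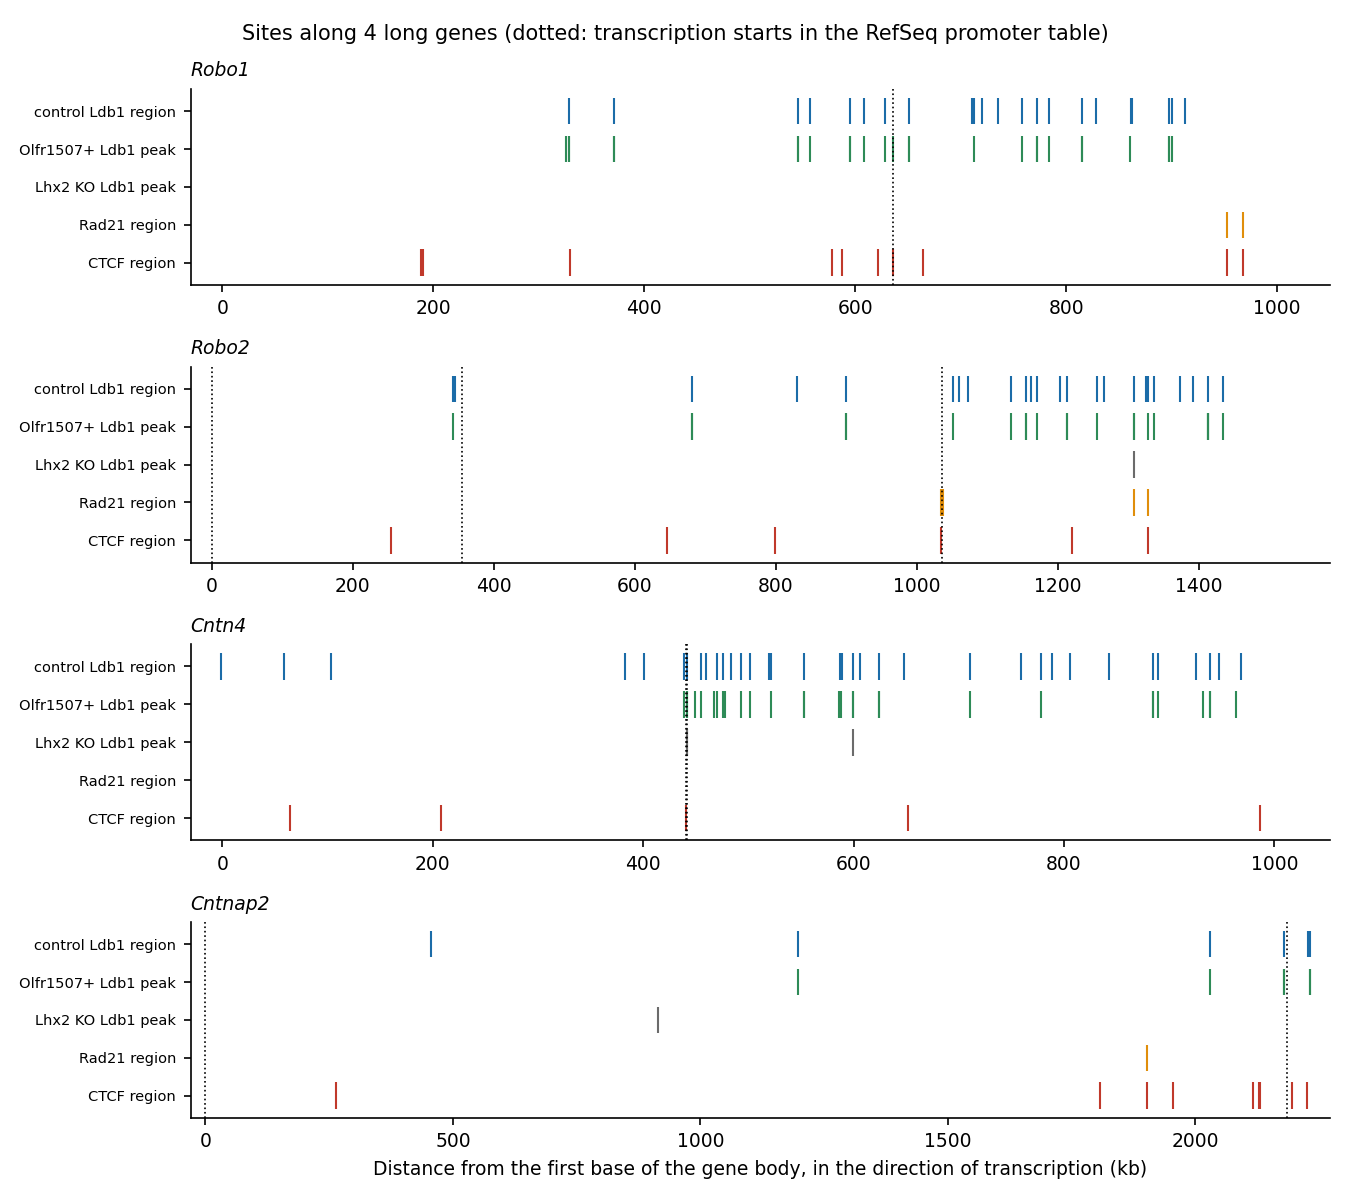
Positions of control Ldb1 regions, Ldb1 peaks of either Olfr1507 library, Ldb1 peaks of either Lhx2 KO library, Rad21 regions and CTCF regions (rows) along Robo1, Robo2, Cntn4 and Cntnap2, in kb from the first base of the gene in the direction of transcription. Dotted lines are starts in the promoter table. In Robo1, Robo2 and Cntn4 the Ldb1 ticks crowd to the right of the last dotted line, and Robo1 has no Lhx2 KO tick.

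Kirrel2 (chr7:30447766-30457515) is the shortest of the genes, at 9.75 kb, and held 3, 4 and 2 control Ldb1 peaks in 3 regions. Among the 19333 genes under 100 kb, 113 were denser. Only 1 of the 3 regions, chr7:30457277-30457659 at the printed promoter and at rank 6269, overlapped the Kirrel2 body. The strongest, chr7:30458369-30458727 at rank 3960, lies 1.03 kb from the start of Kirrel2 but inside Nphs1, the nephrin gene, and the remaining one lies in Aplp1, so the density of Kirrel2 is shared with its neighbours.

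Kirrel3 (chr9:34485853-35040807), the other sorting adhesion gene, held 11, 11 and 8 control Ldb1 peaks in 9 regions. None was among the strongest 10%: its strongest, chr9:34974319-34974738, ranked 6411, with ranks of 6287, 7401 and 6240 in the lists. Of the regions, 8 lie in the body and 1 in the flank on the side of St3gal4. Kirrel3 held 8 CTCF regions, 1.39 per 100 kb, against a median of 0.373 over genes of at least 500 kb, of which 17 of 226 were denser, and of 1.20 over all genes. Kirrel2, Pcdh19, Slit1 and Pcdh17 were denser in CTCF regions than Kirrel3. It held 5 Rad21 regions, 0.870 per 100 kb.

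The 3 delta protocadherin genes differed among themselves. Pcdh17 (chr14:84443563-84537565) held 7, 7 and 4 control Ldb1 peaks in 7 regions, the strongest of which, chr14:84454115-84454504, was at rank 1221. Pcdh10 (chr3:45378398-45434579) held 4, 5 and 4 peaks in 4 regions, all found in all 3 libraries, and its strongest, chr3:45377927-45378306 at the printed promoter, ranked 4013. Pcdh19 (chrX:133582860-133689044) held 3, 4 and 2 peaks in 3 regions, the strongest of which, chrX:133675321-133675681, ranked 6734 and lay 13.5 kb from the listed start.

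Over all 119 member regions the median percentile of strength was 54.8, against 45.3 over all control Ldb1 regions, and 9 of them (7.56%) were among the strongest 10%. These 9 lay in Robo2 (3), Cntn4 (3), Robo1, Cntnap2 and Pcdh17. In the single lists the median percentile of the peaks at the 10 genes was 58.6, 61.2 and 58.1, above the list medians of 49.5, 49.7 and 50.3. At the CTCF and Rad21 peaks the order was the other way, with 48.6 and 45.0 for CTCF (list medians 50.4 and 50.1) and 36.1 and 42.1 for Rad21 (49.9 and 49.0).

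CTCF, a DNA-binding protein of domain boundaries, and Rad21 were present at most of the genes but mostly away from Ldb1. All 10 genes had a CTCF region, against 56.5% of all genes, and 8 had a Rad21 region, against 31.6%. These shares over all genes are not matched for length, and a long window can hold a region more easily. In CTCF regions per 100 kb, all 5 members of at least 500 kb lay above their class median. So did both members of 100 to 500 kb and 2 of the 3 shorter ones. The 2 without a Rad21 region were Cntn4 and Pcdh19, which had 0 Rad21 peaks in the first library and 11 and 2 in the second. The CTCF lists held 11 and 11 peaks at Robo1, 12 and 6 at Robo2, 4 and 5 at Slit1, 1 and 2 at Kirrel2 and 8 and 10 at Kirrel3. They held 8 and 8 at Cntn4, 9 and 10 at Cntnap2, 1 and 2 at Pcdh10, 3 and 4 at Pcdh17 and 4 and 3 at Pcdh19. The pair of counts differed by a factor of 2 at Robo2, Kirrel2 and Pcdh10 and by less at the other genes, and at Kirrel2 and Pcdh10 it rests on 1 and 2 peaks.

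The Rad21 lists, of 10487 and 28151 peaks, differed more. They held 2 and 14 peaks at Robo1, 4 and 8 at Robo2, 3 and 5 at Slit1, 2 and 2 at Kirrel2, 5 and 8 at Kirrel3, 1 and 3 at Cntnap2, 1 and 2 at Pcdh10 and 3 and 3 at Pcdh17. Of the 49 CTCF regions at the 10 genes, 17 (34.7%, against 36.8% of all CTCF regions) overlapped a Rad21 region, and 17 of the 19 Rad21 regions (89.5%, against 92.5%) overlapped a CTCF region. The strongest CTCF region, chr3:45375783-45376126, lies before Pcdh10 and ranked 488 of 24877. The strongest Rad21 region, chr9:34498684-34498987 in Kirrel3, ranked 182 of 9881. Both held the other protein and no control Ldb1 region.

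Of the 119 member Ldb1 regions, 3 overlapped a CTCF peak of either library (2.52%, 95% Wilson interval 0.861 to 7.15), against 9.56% of all control Ldb1 regions. They lay in Robo2, Cntn4 and Pcdh17. Rad21 peaks overlapped 4 in the first library (3.36%, against 4.32%) and 17 in the second (14.3%, interval 9.11 to 21.7, against 23.3%). Of the 17, 6 lay in Robo1, 5 in Cntn4 and 4 in Robo2. Over all control Ldb1 regions, those at promoters held a CTCF peak in 36.7% and a Rad21 peak in 53.8%, and those elsewhere in 7.59% and 21.7%. Promoter regions made up 2.52% of the member regions (3 of 119), against 6.78% of all. Member regions elsewhere held a CTCF peak in 2.59% (3 of 116) and a Rad21 peak in 13.8% (16 of 116). The part of the promoter share in the lower overlap was not tested. Regions of 1 gene are not independent, and the intervals cover counting error only.

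Ldb1 peaks were much fewer in the Lhx2 KO lists, which hold 4290 and 542 peaks in all. Of the 10 genes, 7 had a peak in at least 1 Lhx2 KO library, against 15.6% of all genes (not matched for length). Robo1, Kirrel3 and Pcdh19 had none in either. The first KO library held 2 peaks each at Slit1, Kirrel2 and Pcdh10 and 1 each at Robo2, Cntn4, Cntnap2 and Pcdh17. The second held 2 at Cntn4 and 1 at Pcdh17. Robo1 held at least 16 peaks in every control list and 0 in both KO lists, and Slit1 held at most 8 in a control list and 2 in the first KO list. The lists carry no reads, so the read depth is unknown, and its part in the short KO lists was not tested.

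Of the member regions, 9 (7.56%, interval 4.03 to 13.8) held a peak of the first KO library, against 12.7% of all control Ldb1 regions, and 3 (2.52%, interval 0.861 to 7.15) held a peak of the second, against 2.17%. Peaks of both KO libraries were found at 2 member regions (1.68%), the same share as over all control Ldb1 regions (1.68%). At the promoter region of Cntn4 the KO peaks ranked 159 and 86 in their lists. In the body of Pcdh17, at chr14:84532564-84532931, rank 2643 among control regions, they ranked 980 and 198. The 3 member regions at promoters all held a peak of the first KO library, as did 24.1% of the 1546 control Ldb1 regions at promoters and 11.8% of those elsewhere. Of the other 116 member regions, 6 held one (5.17%). The split by promoter was made after seeing the data, and 3 regions are too few for a comparison.

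Strong control binding often went without a KO peak, at these genes as over all control Ldb1 regions. Of the 9 member regions among the strongest 10%, 6 held no peak in either KO library: rank 613 and rank 1582 in Robo2, rank 861 in Cntn4, rank 943 in Cntnap2, rank 1221 in Pcdh17 and rank 2246 in Robo1. The Cntn4 region at rank 1082 had a peak in the second KO library only. The share of the 9 with a peak in at least 1 KO library was 33.3% (3 regions, interval 12.1 to 64.6). It was near the 38.8% of all control regions of that strength. A single KO peak at the 10 genes lay in no control peak, in the body of Cntnap2 at chr6:45974886-45975129. It stood at rank 3275 of 4290, where ties share a rank, and has the lowest score in that list. The share of such peaks over all 4290 was not counted, so this peak cannot be read as particular to these genes.

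The share of a list that falls at the 10 genes is taken relative to its length, but it can still depend on where the list ends. In the strongest 4290 peaks of the control Ldb1 lists it was 0.629%, 0.676% and 0.513%. In the full lists it was 0.535%, 0.526% and 0.510% in the controls and 0.233% (10 peaks) and 0.554% (3 peaks) in the Lhx2 KO. The KO libraries thus lay on both sides of the control values. The difference of the means, KO minus control, was -0.130 percentage points (0.393 ± 0.227, n = 2, against 0.524 ± 0.0123, n = 3), with a two-sided exact permutation p = 0.4, adjusted p = 0.7 over 2 comparisons. The 5 libraries allow 10 assignments, so that p could not fall below 0.1.

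When every list was limited to its strongest 4290 peaks, the length of the first KO list, the 3 control lists held 27, 29 and 22 peaks at the 10 genes and the first KO list held 10 (a comparison added after seeing the data, with the second KO library left out). Robo2 had 9, 10 and 7 of these in the controls and 1 in the KO, Robo1 had 5, 4 and 4 against 0, and Cntn4 had 7, 7 and 4 against 1. Slit1 had 2 in each of the 4 lists. Kirrel2 had 0, 1 and 1 against 2 and Pcdh10 had 1, 1 and 1 against 2. Pcdh17 had 2, 3 and 2 against 1, Cntnap2 had 1 in each of the 4 lists, and Kirrel3 and Pcdh19 had 0 in each. At this length the counts at Robo1, Robo2, Cntn4 and Pcdh17 were lower in the KO list than in each control list. This rests on 1 KO library. The length of the second KO list left too few peaks for a comparison. Of the strongest 542 peaks of each list, the controls held 3, 3 and 2 at these genes and the KO libraries 2 and 3. Of these, Cntn4 had 1 in each control and 1 and 2 in the KO libraries, Robo2 had 1 in each control and 0 in both KO libraries, and Robo1 had 0 in all 5.

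Relative to list length, in peaks per 10000 list peaks, both KO libraries lay below all 3 control libraries at 5 genes, Robo1, Robo2, Kirrel3, Cntnap2 and Pcdh19, against 34.8% of the 11286 genes with a peak in any of the 5 lists. None of the 10 genes had both above, against 2.74% of genes. This measure was added after seeing the data. In the second KO list of 542 peaks, 1 peak equals 18.5 per 10000. That is above every control value at the 10 genes, of which the highest was 16.3 at Cntn4. At these genes the second KO library thus lay below the controls wherever it had no peak, and the measure cannot show a smaller difference there. Robo1 had 9.65, 9.70 and 9.96 in the controls and 0.0 in both KO libraries. At Robo2 the controls had 12.5, 10.4 and 10.6 and the KO libraries 2.33 and 0.0. At Kirrel3 the controls had 4.42, 3.81 and 4.98 and the KO libraries 0.0. At Cntnap2 the first KO library was only just below the controls, with 2.33 against 2.41, 2.77 and 3.11. A value of 0 in lists this short is near the limit of what they can show for a gene with few control peaks. That holds for Pcdh19, where the controls had 1.21, 1.39 and 1.24. With lists limited to 4290 peaks, Kirrel3, Cntnap2 and Pcdh19 had the same count in the controls and the first KO list.

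**Figure D4:**
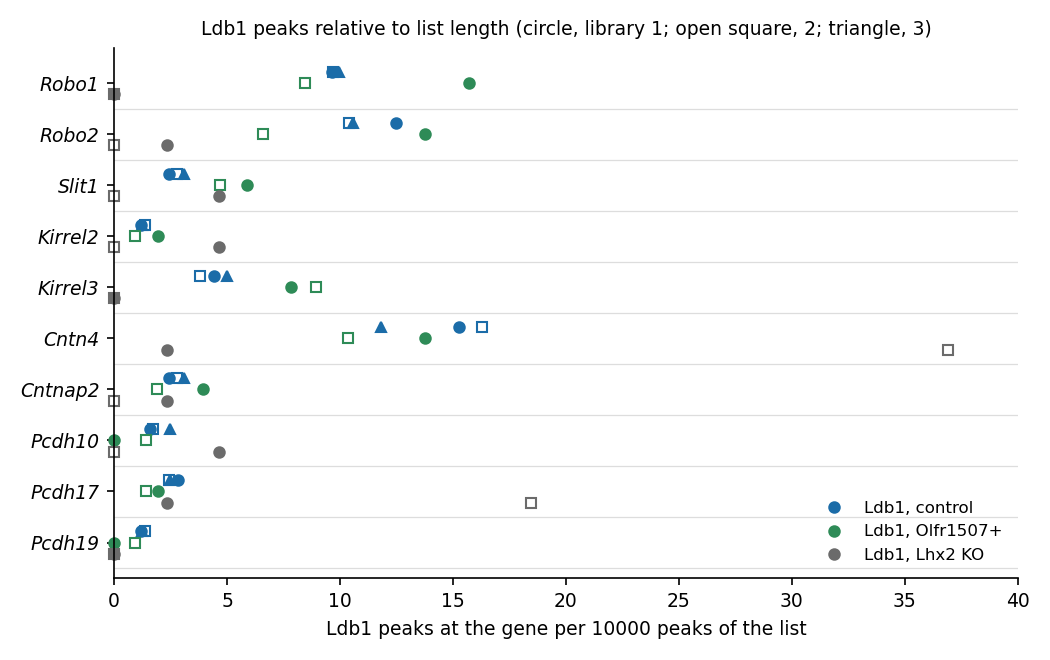
Ldb1 peaks at each gene (rows) per 10000 peaks of the list (horizontal axis), 1 symbol per library, with control, Olfr1507+ and Lhx2 KO libraries on separate lines within a row. Both Olfr1507+ symbols lie right of the 3 control symbols at Kirrel3 and Slit1, and the far right squares at Cntn4 and Pcdh17 are 2 and 1 peaks of the second Lhx2 KO list of 542.

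In the Olfr1507+ cells all 10 genes had an Ldb1 peak in at least 1 library, against 36.4% of all genes (not matched for length). These lists hold 5095 and 21250 peaks. They had 8 and 18 peaks at Robo1, 7 and 14 at Robo2, 3 and 10 at Slit1, 1 and 2 at Kirrel2 and 4 and 19 at Kirrel3. At Cntn4 they had 7 and 22, at Cntnap2 2 and 4, at Pcdh10 0 and 3, at Pcdh17 1 and 3 and at Pcdh19 0 and 2. At Kirrel3 the longer of the lists held more peaks than any control list, although 2 of the control lists are longer.

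Of the member regions, 32 (26.9%, interval 19.7 to 35.5) held a peak of the first Olfr1507 library, against 21.8% of all control Ldb1 regions, and 73 (61.3%, interval 52.4 to 69.6) held a peak of the second, against 73.5%. Among regions found in all 3 control libraries the second share was 80.5% at the 10 genes (62 of 77, interval 70.3 to 87.8) and 88.5% over all. Genes differed: the second Olfr1507 library had a peak at all 9 regions of Kirrel3 and all 6 of Slit1, at 15 of 22 in Robo1, 13 of 24 in Robo2 and 16 of 35 in Cntn4. All 9 member regions among the strongest 10% held peaks of both Olfr1507 libraries. Of all regions of that strength, 96.4% held a peak of the first library and 99.3% one of the second.

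Relative to list length, Kirrel3 and Slit1 were the genes at which both Olfr1507 libraries lay above all 3 control libraries, against 4.57% of the 11319 genes with a peak in any of these 5 lists. At Kirrel3 the Olfr1507 libraries had 7.85 and 8.94 peaks per 10000 list peaks and the controls 4.42, 3.81 and 4.98. At Slit1 they had 5.89 and 4.71 and the controls 2.41, 2.77 and 3.11. Both were below all controls at Pcdh10, Pcdh17 and Pcdh19, against 9.33% of genes. Pcdh17 had 1.96 and 1.41 in the Olfr1507 libraries and 2.81, 2.42 and 2.49 in the controls, and the values at Pcdh10 and Pcdh19 rest on 3 and 2 peaks of the second Olfr1507 list and none of the first.

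With all 5 lists limited to their strongest 5095 peaks, a comparison also added after seeing the data, Kirrel3 had 0 peaks in each control list and 4 and 5 in the Olfr1507 lists, and Slit1 had 2 in each control list and 3 and 4. Both Olfr1507 libraries lay above the controls in this way at 7.97% of 3250 genes and below at 7.75%. Pcdh17 had 3, 4 and 2 in the controls and 1 and 1 in the Olfr1507 lists, while the groups overlapped at Pcdh10 and Pcdh19. The 4 Kirrel3 peaks of the first Olfr1507 library all lay in control Ldb1 regions. Of the 19 of the second, 9 lay in control regions, 4 in a peak of a single control library and 6 in no control peak.

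Of the 97 peaks of the second Olfr1507 library at the 10 genes, 13 lay in no control peak: 6 in Kirrel3, 3 in Cntn4, 3 in Slit1 and 1 in Robo1. None of the 13 overlapped a CTCF or Rad21 peak, and the first Olfr1507 library had no peak outside control peaks. The share of such peaks over all 21250 peaks of the second list was not counted, nor their overlap with CTCF or Rad21. The 13, and the 6 at Kirrel3, thus cannot be read as particular to these genes. Summed over the 10 genes, the share of the list was 0.648% and 0.456% in the Olfr1507 libraries, on both sides of the controls. The difference, Olfr1507 minus control, was 0.0283 percentage points (0.552 ± 0.135, n = 2, against 0.524 ± 0.0123, n = 3), with a two-sided exact permutation p = 0.7 and adjusted p = 0.7. This comparison and that of the KO share the 3 control libraries.

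**Figure D5:**
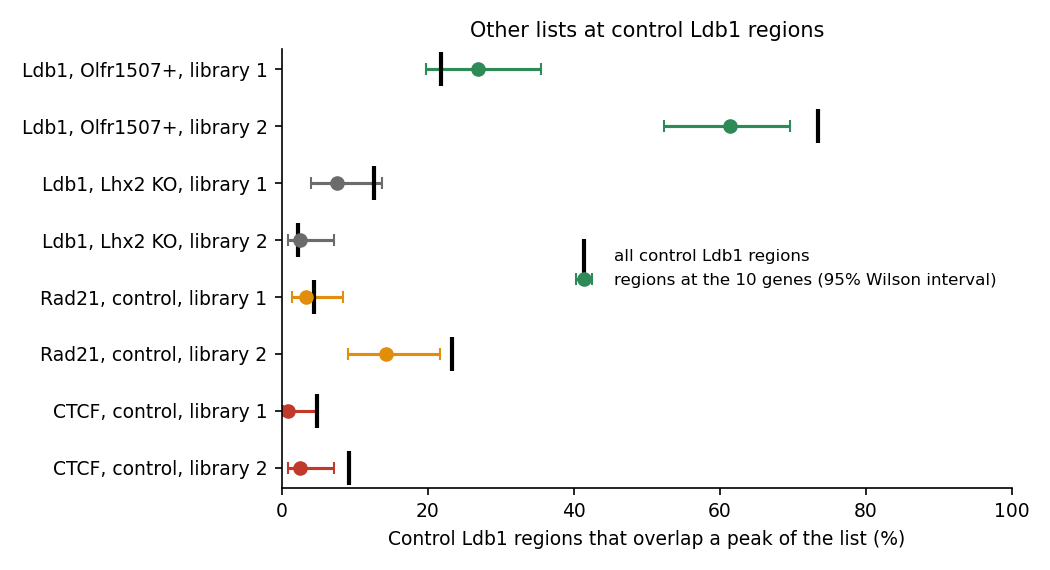
Percent of control Ldb1 regions that overlap a peak of each other list (rows), for the 119 regions at the 10 genes (points with 95% Wilson intervals) and for all 22789 (black bars). The second Olfr1507 library is at 61.3% for the 10 genes and 73.5% for all, and the second Rad21 library at 14.3% and 23.3%.

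The families of these genes were looked up by control Ldb1 region, to be read against the 39.7% of all genes, which is not matched for length. Of 4 Robo receptor genes 2 had a region, Robo1 being densest, and Robo3 and Robo4 had none. All 3 Slit genes had one. Of 13 signalling partners of Slit and Robo, 9 had one, led by the GTPase activator gene Srgap1 with 4.53 per 100 kb, and Gpc1, Vasp, Flrt3 and Prrg4 had none. All 5 Kirrel and nephrin genes had a region, with Kirrel2 densest, but the windows of Kirrel2 and Nphs1 overlap and share regions.

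Of 6 contactin genes 5 had one, with Cntn2 densest at 3.72 per 100 kb in 2 regions, and Cntn6 had none. Of 7 contactin-associated genes 4 had one, with Cntnap4 densest at 1.20, and Cntnap1, Cntnap3 and Cntnap5c had none. Of 10 delta protocadherin genes 8 had one, with Pcdh1 densest at 10.8, and Pcdh18 and Pcdh20 had none. Marker genes of cell types were looked up too, and all 7 of mature olfactory neurons and all 3 of immature ones had a control Ldb1 region. Among markers of other cells, the counts with a region were 1 of 4 of basal cells, 1 of 5 of sustentacular and gland cells and 2 of 4 of glia, immune and vascular cells. Binding is not expression, so these counts describe the peak lists only and cannot check the labelled cell type.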

How the data were processed

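The series holds 28 samples: 14 chromatin immunoprecipitation or input samples and 14 RNA samples. The 11 samples with a peak list were used, while inputs (3) and RNA were not analysed here, and for 2 RNA samples the labels disagree on the sorted population. Per the submitters' processing notes the tools included HOMER 4.7, Bowtie2 2.3.2 and SAMtools 1.3.1, with build mm10. What each tool did, the peak threshold and the background library are not stated there. Each list belongs to 1 library. The score in each deposited list is the authors' own value per peak and was used only to rank peaks within that list. Lists hold no reads, so depth is unknown.

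Scaffold peaks were left out. The rank of a control Ldb1 region comes from its percentile by score in each of the 3 lists, averaged, with 0 for a list without a peak. Gene positions, promoters and their sequences came from RefSeq tables of GRCm38.p6. No genome was used here. Calculations used Python 3.11.15, pandas 2.3.3, numpy 2.4.6 and scipy 1.17.1. The 2 shares of lists were tested by exact permutation over libraries with Benjamini-Hochberg adjustment, and all else is description. Overlap counting was tested on simulated peaks.

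The 10 genes and the family lists were chosen with earlier results of these data known. Named were all members with every list, each member's strongest Ldb1 region, the 5 strongest of all, the strongest CTCF and Rad21 regions, regions with both KO peaks, those of the strongest 10% with none, and in families the densest gene and those without a region. Other named items were chosen after their values were seen. Alternatives were other windows, overlap rules, list lengths, library minimums and left-out libraries.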

Additional observations from a re-analysis of the deposited data

How the results depend on the processing

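Peak number per list sets most limits here: depth is unknown, and an absent peak in a short list does not show absent binding. The designs allow no p below 0.1, so the tests say nothing of stability. Over all results 66 alternative values stayed within a set tolerance (counts within 1.5 times, shares of regions within the 95% Wilson interval of the reported value, list shares with the same sign), 17 moved further and 4 changed sign. The interval is wide where regions are few: the share with a CTCF or Rad21 region, 1.68%, was 0.840% with reciprocal overlap and 3.36% without the first CTCF or the second Rad21 library. The Lhx2 KO minus control share ranged from -0.291 to 0.0297 percentage points when single libraries were left out, and turned positive without the first KO library. With all lists limited to the shortest it was -0.0308 (exact permutation p = 1.0). Limited to the length of the first KO list, it was -0.373, a value added after seeing the data that sets 1 KO library against 3 controls and gives no test. The Olfr1507 minus control share ranged from -0.0673 to 0.124 with single libraries left out, turning negative without the first Olfr1507 library, and was -0.0393 with lists limited to the shortest and -0.0369 with the upper 50% of each list. With the replicate number as a block the differences were -0.137 and 0.0216 (exact permutation p = 1.0 each, smallest possible 0.5). The numbers of the 2 pairs are shared by label only.

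Control Ldb1 regions at the 10 genes numbered 76 in the upper 50% of the lists, 77 when all libraries were required, and 78 to 117 without single libraries (78 without control library 1 or 2). CTCF regions numbered 20 in the upper 50% and 61 without either library. Rad21 regions numbered 6 in the upper 50%, 60 with a peak in any library, and 21 to 58 without single libraries (58 without the first). The share of Ldb1 regions with a CTCF or Rad21 region was 0.0% in the upper 50%, 14.0% with any library and 1.68% to 14.3% without single libraries (14.3% without the first Rad21 library). The share with an Lhx2 KO peak was 2.52% to 11.5% without single libraries, the lowest without the first KO library. The share with an Olfr1507 peak was 80.5% when all libraries were required, 50.3% with any, and 26.9% to 80.8% without single libraries, the lowest without the second Olfr1507 library. The cause of these shifts was not tested.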
